A study of Mus musculus with 3 samples.

Results

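Stroma9 is a cluster of fibroblast-like cells from mouse melanomas, taken here as every cell that carried this name in the deposited cluster assignments. It held 311 of the 12670 cells in the series and 311 of the 7968 cells in clusters named Stroma1 to Stroma10. Of these cells, 310 came from 1 tumor that had regressed on treatment, 1 came from a progressed tumor and 0 came from an untreated tumor.

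The tumors arose in genetically engineered C57BL/6 mice that carried a Cre-activated Braf V600E allele and, among other alleles, Tyr.CreER, a tamoxifen-activated Cre driven by the tyrosinase promoter of melanocytes. A Cre-activated tdTomato reporter was also carried, tumors were induced with 4-OH tamoxifen on the skin of young adult mice, and stromal cells such as Stroma9 are not the cells this Cre targets. One tumor was untreated, one was taken in regression on the BRAF inhibitor vemurafenib and one after progression on that drug, each profiled as 1 droplet library of 3' transcript counts. With 1 tumor per group, tumor, animal, library and treatment cannot be told apart, and no test between groups was possible.

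Dermal fibroblasts build the matrix of skin and of tumors. They secrete the fibrillar collagens, which assemble into fibres, the type VI and type IV collagens of the pericellular and basement membranes, and small proteoglycans such as decorin and lumican that space the fibres. Their transcripts also encode the proteases and inhibitors that turn this matrix over, and skin holds several fibroblast populations that differ in how much of each they make.

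The markers fitted the label. Col1a1, the main chain of type I collagen, had a UMI (a unique molecular identifier, 1 counted transcript) in 99.0% of the 310 regressed Stroma9 cells, and Sparc, a collagen-binding matrix glycoprotein, in 100%. The share for Col1a1 was 91.9% in the other stroma cells of that tumor and 51.7% in its NK_T cells, which should not make collagen and serve here as a measure of free RNA. The median depths were 4065.5 UMIs in Stroma9, 2983.5 in the other stroma and 2652.5 in NK_T. After thinning each cell to 1000 UMIs, the Col1a1 shares were 96.7%, 83.1% and 23.2%, and the Sparc shares were 97.7%, 90.6% and 43.5%. The thinned comparison left out 6 Stroma9, 179 other stroma and 12 NK_T cells that were shallower. Summed over cells, Col1a1 stood at 8486 counts per 1000000 UMIs (CPM) in Stroma9 and 294 CPM in NK_T cells, and Sparc at 10004 and 559 CPM.

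Markers of other cell types were checked beside NK_T cells. The pan-leukocyte gene Ptprc was at 14.5 CPM in Stroma9, 19.2 CPM in other stroma and 550 CPM in NK_T cells. The blood endothelial list of 8 genes summed to 169 CPM in Stroma9, 164 CPM in other stroma and 108 CPM in NK_T cells. Of its 5 compared genes, 1 was at least 2-fold higher and 2 lower, against 4.15% and 9.73% of all features. Plvap, a protein of endothelial fenestrae, was at 124 against 51.6 CPM, while Pecam1 had 6 UMIs and Kdr had 1 UMI in all 310 cells. The red blood cell list of 5 genes summed to 1512 CPM in Stroma9, 1616 CPM in other stroma and 1897 CPM in NK_T cells, and the keratinocyte list of 8 genes to 953, 1020 and 1419 CPM. The transgene list of tdTomato and tWPRE was at 23.9 CPM in Stroma9 against 40.3 CPM in other stroma, and the melanocyte list of 6 genes at 67.3 against 83.1 CPM. None of these last 4 sums was higher in Stroma9 than in the other stroma. Cells with 2 or more UMIs of such marker lists numbered 175 of 310 in Stroma9 and 638 of 1608 in the other stroma, and without them the log2 ratio of the fibrillar collagens described below was 1.66 in place of 1.67.

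Stroma9 cells made up 16.2% of the 1918 stroma cells of the regressed tumor, with an exact Clopper-Pearson 95% interval of 14.5% to 17.9%. In the progressed tumor the share was 1 of 3422 stroma cells, or 0.029% (0.00074% to 0.163%). In the untreated tumor it was 0 of 2628, or 0% (0% to 0.14%). These intervals, and all that follow, cover counting error only. The neighbouring cluster Stroma10 was just as uneven, with 1537 regressed, 7 progressed and 4 untreated cells. The 2 clusters together therefore held nearly all stroma of 1 library, and whether that reflects the tumor state or the library cannot be told apart.

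**Figure D1:**
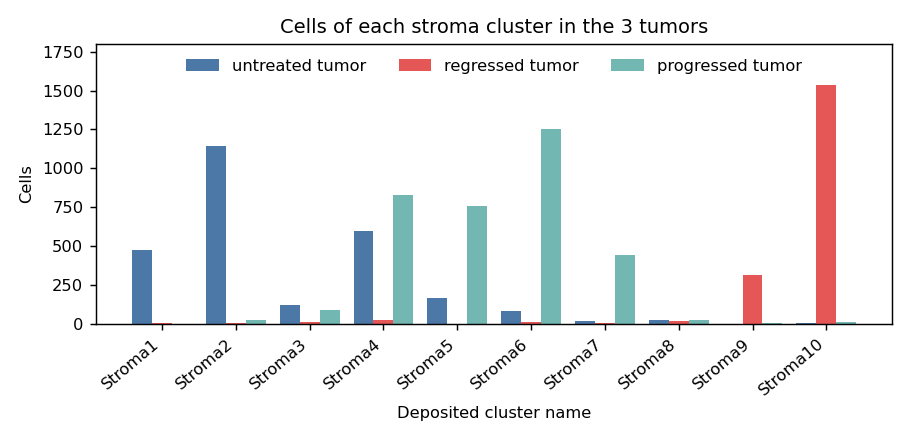
Number of cells (y axis) in each deposited stroma cluster (x axis), with 1 bar per tumor. Stroma9 (310 cells) and Stroma10 (1537 cells) are almost entirely from the regressed tumor, while Stroma2, Stroma5 and Stroma6 are nearly absent from it.

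The single progressed cell with this name held 1280 UMIs. It had 17 UMIs of Dcn, 5 of Col3a1, 4 of Sparc and 2 of Col1a1, and 0 of Mmp3, Col4a1, Lpl, Dpt and Gdf10, genes that lead the regressed Stroma9 cells below. One cell of this depth allows no comparison, and Stroma9 itself could not be compared between tumors.

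The first question was what set Stroma9 apart from the other stroma within the regressed tumor. That comparison group held 1608 cells of 8 other clusters, and 95.6% of them were Stroma10. The 310 Stroma9 cells gave 1382539 UMIs and the other stroma 5042159. Across 12624 features with at least 20 UMIs in both groups together, 524 were at least 2-fold higher in Stroma9, which is 4.15% of those compared, and 1228 were at least 2-fold lower, which is 9.73%. The median log2 ratio was -0.15. These counts rest on the comparison group and the filter. With Stroma10 and the 20 Stroma4 cells weighted equally, 2761 were higher and 1802 lower. A filter of at least 100 UMIs, chosen after seeing the data, gave 245 higher and 441 lower. With no filter on low counts, 5352 scored as higher and 1667 as lower. There, a feature with no UMI in Stroma9 was raised to a set minimum and could score as higher. The unfiltered 5352 is therefore not a count of features truly higher in Stroma9. Clusters were defined on these same transcripts, so the values below describe Stroma9 and carry no test.

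High genes were ranked among those of at least 100 CPM and a UMI in at least 20% of Stroma9 cells. Those with the highest ratios were of several kinds, among them matrix proteins, proteases and other enzymes. The 20 highest included Angpt2, Mmp3, Dpt, Inmt, Nrep, Gdf10, Spon1, Hsd11b1, Lpl, Ifi205, Fbln7, Gpm6b, Col4a1, Ndufa4l2, Ctsh, Mmp23, Dclk1, Basp1 and Crispld2. The log2 ratios of the 20 ran from 2.25 to 3.54, and the lower bounds of their 95% intervals were 1.93 or more.

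Mmp3 (chr9:7445822-7455975, GRCm38.p6), which encodes the matrix protease stromelysin, was at 1101 CPM in Stroma9 (1046 to 1158) and 115 CPM in the other stroma (106 to 125), a log2 ratio of 3.26 (3.12 to 3.4). Among single Stroma9 cells it ran from 0 to 12896 CPM with a median of 378 CPM, and 109 of the 310 cells had no UMI. The share of cells with a UMI was 64.8% against 11.7%, and 37.2% against 4.83% after thinning. NK_T cells were at 22.3 CPM.

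The 250 bases before the Mmp3 start are shown because Mmp3 had the second-highest ratio among the genes ranked above. This window also holds a binding motif of AP-1, the Fos and Jun dimer. Capitals mark TGANTCA, searched on both strands. The sequence is from RefSeq, GRCm38.p6, plus strand, chr9:7445572-7445821.
Mmp3: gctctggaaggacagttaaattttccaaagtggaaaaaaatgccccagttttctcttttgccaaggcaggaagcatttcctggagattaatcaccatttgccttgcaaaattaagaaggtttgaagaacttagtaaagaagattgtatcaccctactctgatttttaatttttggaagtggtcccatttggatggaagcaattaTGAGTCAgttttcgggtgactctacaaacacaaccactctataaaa
The motif starts 46 bases before the gene start. It occurs in 6.75% of 32851 mouse windows of this length, so its presence alone is a description of this window.

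Immediate early genes, among them the AP-1 subunits Fos and Jun, stood at similar levels in both groups. The 9 listed genes summed to 7431 CPM in Stroma9 and 8041 CPM in other stroma, and 0 of the 9 passed 2-fold. Fos itself was at 1850 CPM in Stroma9 and 2460 CPM in other stroma, and Jun at 1755 and 1993 CPM.

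Secreted regulators came next. Angpt2, an angiopoietin that acts on the endothelial receptor Tie2, was at 129 CPM (111 to 150) in Stroma9 against 11.1 CPM (8.39 to 14.4), a log2 ratio of 3.54 (3.10 to 4.0). It had a UMI in 35.8% of Stroma9 cells and 3.17% of other stroma cells. Gdf10, a member of the BMP family, was at 600 CPM against 81.5 CPM, a log2 ratio of 2.88 (2.71 to 3.05), with a UMI in 72.6% and 15.7% of cells. In NK_T cells these genes were at 5.57 and 26.0 CPM. Spon1, a matrix-bound spondin, was at 105 against 15.1 CPM and Crispld2, a secreted protein, at 171 against 35.9 CPM.

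Dpt, dermatopontin, a small matrix protein that binds decorin, was at 406.5 CPM (374 to 442) against 49.0 CPM (43.1 to 55.5). Its cells ran from 0 to 1852 CPM with a median of 256 CPM, and 61.0% had a UMI against 7.65%. Fbln7, a fibulin, was at 104 against 16.3 CPM, and Mmp23, a membrane-bound matrix metalloprotease, at 114 against 23.4 CPM.

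Enzymes formed another group among the 20. Lpl, lipoprotein lipase, was at 796 CPM (750 to 845) against 122 CPM (112 to 132), a log2 ratio of 2.71 (2.57 to 2.85). Of the other fat-cell genes, Fabp4, a fatty acid carrier, was at 51.4 against 22.6 CPM, while Adipoq, Plin1, Cfd, Plin4 and Car3 had 0 UMIs in Stroma9. Inmt, an N-methyltransferase, was at 175 against 23.4 CPM. Ctsh, a lysosomal cysteine protease, was at 335 against 64.1 CPM, and Ndufa4l2, a mitochondrial protein, at 310 against 59.1 CPM. Hsd11b1, which regenerates active glucocorticoid from its inactive form, was at 225 against 33.3 CPM. For Hsd11b1 the NK_T level of 126 CPM was above that of the other stroma.

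Other leading genes were of mixed kinds. The membrane protein Gpm6b was at 184 against 31.1 CPM, the kinase Dclk1 at 149 against 31.1 CPM, Basp1 at 145 against 30.3 CPM and Nrep at 347 against 46.6 CPM. Ifi205 was at 239 against 36.9 CPM. It belongs to a family of closely related interferon-inducible genes, so its value is uncertain, and 0 of the 10 genes of the interferon-stimulated list passed 2-fold.

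**Figure D2:**
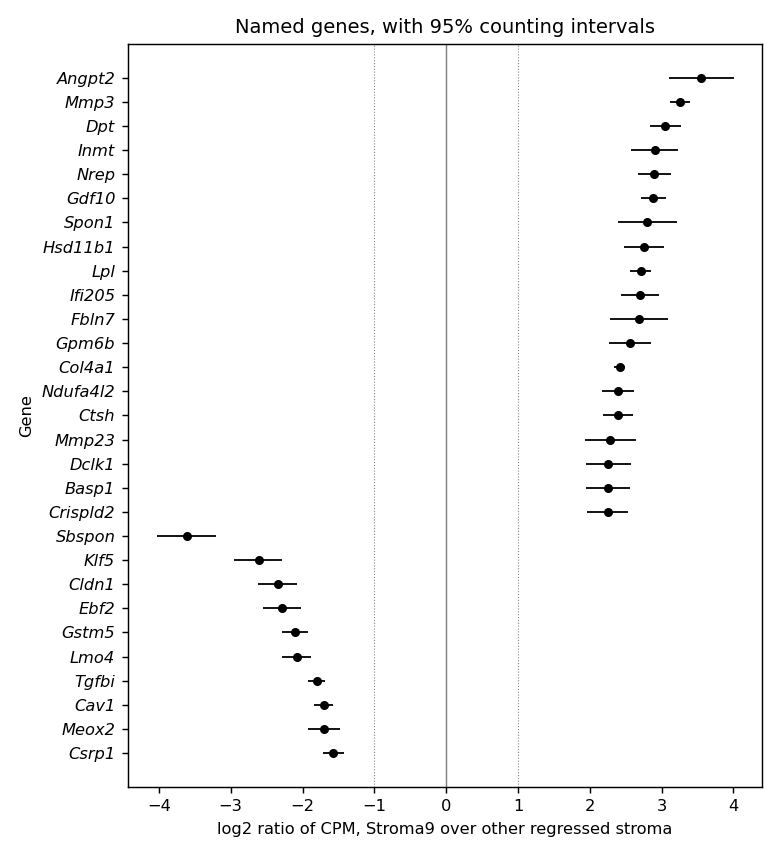
log2 ratio of CPM in the regressed tumor (x axis), 310 Stroma9 cells over 1608 other stroma cells, for 29 named genes (y axis), with bars for the exact 95% counting interval and dotted lines at 2-fold. Angpt2 is highest at 3.54 and Sbspon lowest at -3.60, and every interval lies outside the dotted lines.

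Collagens were higher as a group. Of 7 fibrillar collagen genes, 6 were at least 2-fold higher and 0 were lower, against 4.15% of all features, and the summed list was at 38151 CPM in Stroma9 and 11967 CPM in other stroma, a log2 ratio of 1.67 (1.66 to 1.69). The NK_T cells had 1535 CPM of this list. Col1a1 was at 8486 against 2764 CPM, Col1a2 at 11794 against 3575 CPM, and Col3a1, the type III chain of soft skin collagen, at 16028 against 4853 CPM. Type V collagen, which starts the fibres, followed with log2 ratios of 1.57 for Col5a1, 1.10 for Col5a2 and 1.36 for Col5a3. Col11a1 was the exception at 17.4 against 24.8 CPM, with an interval of its log2 ratio that held 0 (-1.21 to 0.12).

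Every Stroma9 cell had a Col3a1 UMI. Single cells ran from 370 to 45711 CPM with a median of 13539 CPM, and the Stroma10 median was 3451 CPM. For Col1a1 the Stroma9 cells ran from 0 to 29450 CPM with a median of 6760 CPM, against a Stroma10 median of 1977 CPM. The upper quartile of Stroma10 cells, 5616 CPM for Col3a1 and 3161 CPM for Col1a1, lay below the lower quartile of Stroma9 cells, 7753 and 3702 CPM, and the ranges overlapped.

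Col1a2 is one of the collagen genes that were higher together, and its 250 upstream bases are shown for the CCAAT box that they hold. Capitals mark CCAAT, searched on both strands. The sequence is from RefSeq, GRCm38.p6, plus strand, chr6:4505368-4505617.
Col1a2: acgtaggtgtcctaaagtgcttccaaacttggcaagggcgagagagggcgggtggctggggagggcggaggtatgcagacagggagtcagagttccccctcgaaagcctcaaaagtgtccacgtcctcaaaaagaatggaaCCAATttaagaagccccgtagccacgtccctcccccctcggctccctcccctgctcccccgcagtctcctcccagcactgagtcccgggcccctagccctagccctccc
The box starts 109 bases before the gene start. CCAAT occurs in 33.8% of the 32851 windows, and the window of Col3a1 holds none.

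The same held for other collagens, with 5 of 9 genes at least 2-fold higher and 1 lower, against 4.15% and 9.73% of all features. The 3 chains of type VI collagen, which forms beaded filaments around cells, had log2 ratios of 1.57 for Col6a1, 1.92 for Col6a2 and 1.99 for Col6a3. Col6a3 was at 2417 CPM (606 CPM in other stroma). Col15a1 was at 574 against 190 CPM, a log2 ratio of 1.60 (1.46 to 1.73). Col8a1 was lower, at 50.6 against 156 CPM, a log2 ratio of -1.62 (-2.0 to -1.27).

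In the basement membrane list the type IV collagen chains stood apart from the laminins. Col4a1 was at 2684 CPM (2599 to 2772) in Stroma9 and 503 CPM (483 to 523) in other stroma, a log2 ratio of 2.42 (2.34 to 2.49), and Col4a2 at 1693 against 374 CPM, a log2 ratio of 2.18 (2.09 to 2.27). Col4a1 had a UMI in 97.7% of Stroma9 cells and 64.4% of other stroma cells, and in 87.2% and 35.8% after thinning. Both genes lie head to head on chromosome 8, with annotated spans of 11198423 to 11312889 and 11312805 to 11449287. The other 7 genes of the list did not pass 2-fold. Lama2 was at 510 against 290 CPM, Hspg2, the proteoglycan perlecan, at 430 against 224 CPM, Nid1 at 535 against 345 CPM, and Lama4 was lower at 70.2 against 119 CPM. The summed list had a log2 ratio of 1.49 (1.45 to 1.53).

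Genes that modify collagen were at low levels. Of 8 crosslinking genes with enough UMIs, 5 were at least 2-fold higher and 0 lower, against 4.15% and 9.73% of all features, and the list summed to 580 against 334 CPM. Lox, a lysyl oxidase that crosslinks collagen, was at 68.0 against 22.0 CPM, a log2 ratio of 1.63 (1.21 to 2.04). Loxl1, Loxl2, Loxl3 and Plod1 were between 1.01 and 1.09 on the log2 scale, and the intervals of all 4 reached below 1. Tgm2, a transglutaminase, was at 28.9 against 54.9 CPM, a log2 ratio of -0.93 (-1.44 to -0.44).

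Small leucine-rich proteoglycans as a whole did not differ by much. Dcn, decorin, was at 19137 CPM in Stroma9 and 19840 CPM in other stroma, and Lum, lumican, at 3801 and 3409 CPM. The summed list had a log2 ratio of 0.03 (0.02 to 0.05). Of its 9 genes, 2 were past 2-fold higher and 1 lower, against 4.15% and 9.73% of all features. The higher ones were Podn, at 164 against 76.6 CPM, and Fmod, fibromodulin, at 42.0 against 2.97 CPM. Omd, osteomodulin, was lower at 17.4 against 53.1 CPM.

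Proteases and inhibitors other than Mmp3 were less distinct. Adamts5, an aggrecanase, was at 400.0 CPM against 102 CPM, a log2 ratio of 1.97 (1.79 to 2.15). Timp3, an inhibitor of matrix proteases, was at 2420 against 1293 CPM, a log2 ratio of 0.90 (0.84 to 0.96). The gelatinase gene Mmp2 was at 1077 against 805 CPM and Mmp14 at 474 against 325 CPM. In all, 2 of 11 genes of the list passed 2-fold higher and 0 lower, against 4.15% and 9.73% of all features.

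Growth factor receptors and chemokines showed higher levels of Pdgfrb and Pdgfra, the receptors for platelet-derived growth factors. Pdgfrb was at 532 against 179 CPM, a log2 ratio of 1.57 (1.42 to 1.71), and Pdgfra at 401 against 197 CPM, a log2 ratio of 1.02 (0.87 to 1.18). Among their ligands, Pdgfb and Pdgfc had 0 UMIs in Stroma9 and Pdgfa had 6, near the floor. Cxcl12, the ligand of the receptor Cxcr4, was at 381 against 177 CPM and Cxcl14 at 892 against 430 CPM. The eotaxin gene Ccl11 was at 649 against 980 CPM. Of the 15 inflammatory genes, 2 were past 2-fold higher and 3 lower, against 4.15% and 9.73% of all features. The 3 lower were Il6, Saa3 and Cxcl5, with 3, 3 and 0 UMIs in Stroma9.

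Pdgfrb is also a pericyte marker. Of the 8 pericyte genes, 3 were past 2-fold higher and 2 lower, against 4.15% and 9.73% of all features. The list summed to 656 against 343 CPM, of which Pdgfrb was 532 and 179 CPM. Rgs5, a defining pericyte gene, was at 9.40 CPM against 20.4 CPM and Cspg4 at 35.4 against 88.5 CPM. Acta2, smooth muscle actin, was at 18.8 against 9.72 CPM, and at 24.2 CPM in NK_T cells. Of 5 compared smooth muscle genes, 2 were past 2-fold higher and 1 lower. The smooth muscle list of 8 genes summed to 200 CPM in Stroma9, 147 CPM in other stroma and 46.4 CPM in NK_T cells. Among its genes, Tagln had 2 UMIs in 310 cells and Cnn1 had 0.

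Low genes were ranked among those of at least 300 CPM in the other stroma. The lowest in Stroma9 relative to the other stroma were Sbspon, Klf5, Cldn1, Ebf2, Gstm5, Lmo4, Tgfbi, Cav1, Meox2 and Csrp1. Sbspon, a somatomedin B and thrombospondin domain protein, was at 37.6 CPM (28.1 to 49.3) against 457 CPM (439 to 476), a log2 ratio of -3.60 (-4.03 to -3.21). It had a UMI in 15.5% of Stroma9 and 58.5% of other stroma cells, and NK_T cells were at 31.6 CPM. Klf5, a zinc finger transcription factor, was at 58.6 against 358 CPM, and Ebf2, another transcription factor, at 91.1 against 443 CPM. Cldn1, a tight junction claudin, was at 85.4 against 433 CPM, and NK_T cells at 74.3 CPM. For Sbspon, Cldn1 and Lmo4 the Stroma9 level was thus at or near that of NK_T cells. Lmo4 was at 150 CPM in Stroma9 and 176 CPM in NK_T cells. How much of these levels was free RNA was not tested.

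Tgfbi, a matrix protein induced by TGF-beta, was at 503 CPM (467 to 542) against 1757 CPM (1721 to 1794), a log2 ratio of -1.80 (-1.92 to -1.69). Its cells ran from 0 to 3058 CPM with a median of 421 CPM, and the Stroma10 median was 1525 CPM. TGF-beta targets as a list were mixed in direction. Of the 12 listed genes, 4 were past 2-fold higher and 2 lower, against 4.15% and 9.73% of all features. The higher ones included Ccn2, Ccn1 and Ccn4, and the lower ones were Tgfbi and Ltbp2. The summed log2 ratio of -0.87 and the median of 0.24 differed in sign. Ccn1, a matricellular protein, was at 129 against 34.3 CPM, and Ltbp2 at 17.4 against 90.8 CPM.

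Markers of the nerve sheath, the perineurial cell layer around peripheral nerves, were all lower in Stroma9 than in the other regressed stroma. All 6 listed genes were at least 2-fold lower, against 9.73% of all features, and the list summed to 171 CPM against 829 CPM, a log2 ratio of -2.28 (-2.47 to -2.09). Itgb4, an integrin of epithelia and perineurium, was at 18.1 against 183 CPM, and Slc2a1, the glucose transporter Glut1, at 22.4 against 80.9 CPM. The NK_T cells summed to 195 CPM for this list, so the Stroma9 level was not above theirs. How much of either level was free RNA was not tested. Cldn1 is also among the lowest genes above. Ptch1, which is in this list too, and Gli1, both targets of Hedgehog signalling, were at 38.3 against 97.8 CPM and at 18.8 against 46.6 CPM. Schwann cell genes were also low, at 102 against 335 CPM, through S100b, Ngfr and Cdh19.

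Wnt antagonists and IGF-binding proteins differed gene by gene. Sfrp1 was at 44.8 against 229 CPM, a log2 ratio of -2.35 (-2.75 to -1.98), and Sfrp5 had 2 UMIs against 174. In the IGF axis Igfbp6 was at 1492 against 3825 CPM, a log2 ratio of -1.36 (-1.42 to -1.29), Igfbp3 at 273 against 77.9 CPM, and Igf1 at 339 against 336 CPM. Apod, apolipoprotein D, was at 7759 against 14222 CPM, a log2 ratio of -0.87 (-0.90 to -0.84). The BRAF inhibitor acts on the MAPK pathway, and the 9 MAPK target genes summed to 641 CPM in Stroma9 and 642 CPM in other stroma. The genes were not uniform, since Etv1 and Etv4 were past 2-fold lower and Spry4 higher. Division genes were low in both groups, with 38.3 and 43.4 CPM for the 10 mitosis genes.

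Complement, antigen presentation and mitochondrial genes set Stroma9 apart less. The complement inhibitor Serping1 was at 2082 against 2118 CPM, while C3, the central complement component, was at 29.7 against 102 CPM and Cfb at 174 against 78.5 CPM. Of 8 genes of MHC class I presentation none passed 2-fold, and the list summed to 3390 against 2262 CPM. It stood at 10296 CPM in NK_T cells, where class I levels are high. Mitochondrial transcripts summed to 8581 against 9048 CPM.

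Stroma9 cells differed among themselves more for some genes than counting gives. For each gene the squared deviation of the cells from the shared level was divided by its Poisson value, so that 1 is counting noise. Over the 710 genes of at least 200 CPM the median of this ratio was 1.17, and it was 10 or more for 18 genes. Malat1, a nuclear non-coding RNA, had the highest value at 68.3, followed by Cst3 at 36.3, Gsn at 28.7, Igfbp3 at 27.6 and Col3a1 at 21.9.

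Igfbp5 and Igfbp3, which bind insulin-like growth factors, came from few cells. The 16 cells with the most Igfbp5 UMIs held 81.6% of them, and 256 of 310 cells had none. For Igfbp3 the 16 highest cells held 59.3% and 203 cells had none. Mmp3 was also concentrated, with 45.8% of its UMIs in 16 cells, and 1 cell held 118 of its 1522 UMIs. Lpl, Dpt and Gdf10 were more even, with 25.6%, 25.6% and 23.5% of UMIs in the 16 highest cells, and Col4a1 the most even of these at 16.4%.

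Across the 310 cells, the share of UMIs in fibrillar collagens and in the basement membrane list had a Pearson correlation of 0.40 and a Spearman correlation of 0.44. The share of fibrillar collagens also went with depth, at a Spearman value of 0.36, and all cells share 1 library. Proteoglycans and complement genes had a Spearman value of 0.40. Mitochondrial transcripts and depth had -0.39. The fibrillar collagen and proteoglycan shares had -0.04.

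**Figure D3:**
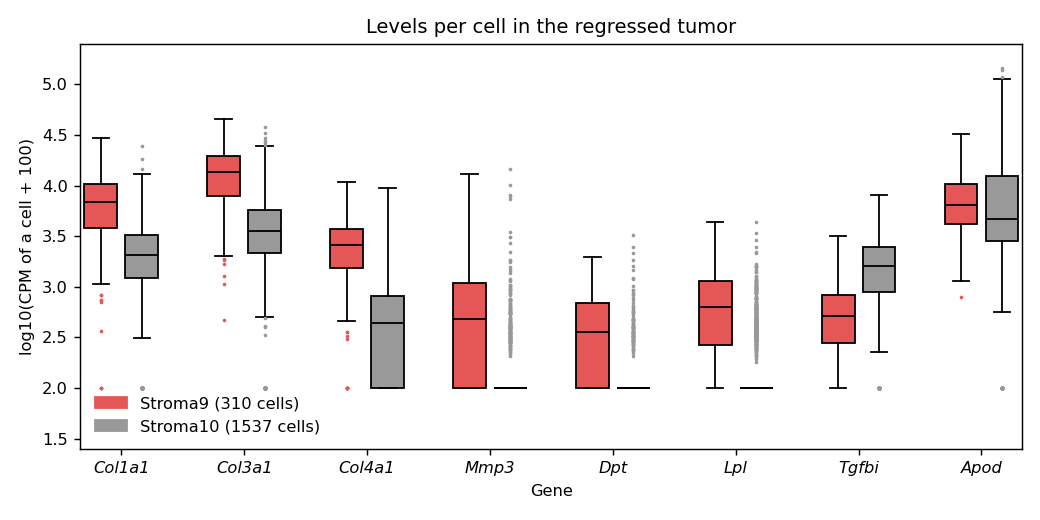
Levels per cell, as log10(CPM + 100) on the y axis, of 8 genes (x axis) in the 310 Stroma9 cells and the 1537 regressed Stroma10 cells. Boxes give the quartiles, the line the median, whiskers reach 1.5 times the box height and points lie beyond them, and a cell with no UMI sits at 2. Col1a1, Col3a1 and Col4a1 are higher in most Stroma9 cells, Tgfbi is lower, and the Mmp3 box of Stroma9 starts at 2 because 109 cells had no UMI.

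The 20 leading genes together took a median of 0.78% of the UMIs of a Stroma9 cell and 0.094% of those of another stroma cell, and 0.7% and 0.1% after thinning. The lowest Stroma9 cell had 0.069% and the highest other stroma cell 1.82%, so single cells of the groups overlapped. The 10 lowest genes took 0.178% and 0.734%. The genes were chosen for this difference, which is given as a description.

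Next, Stroma9 was placed among the stroma clusters of all 3 tumors. Likeness was the Pearson correlation of log2(CPM + 1) over 6764 genes with a mean of at least 20 CPM in the 17 tumor-and-cluster groups of at least 20 cells. Stroma9 was most like Stroma10 of its own tumor, at 0.9. In the other tumors it was most like progressed Stroma6 at 0.881 (1255 cells) and untreated Stroma2 at 0.871 (1144 cells), and less like Stroma4, at 0.810 and 0.786. Among clusters of the other tumors, Stroma10 was most like Stroma4, at 0.873 in the progressed and 0.883 in the untreated tumor, and less like progressed Stroma6 (0.781) and untreated Stroma2 (0.790).

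The leading genes of Stroma9 were high in those clusters too. Their sum was 8439 CPM in Stroma9 (8286 to 8593), 8310 CPM in progressed Stroma6 (8235 to 8385), 8311 CPM in untreated Stroma6 (8054 to 8575) and 7667 CPM in untreated Stroma2. The first 3 of these had overlapping intervals. It was 1221 CPM in Stroma10, 1653 CPM in progressed Stroma4 and 1037 CPM in untreated Stroma4. Other clusters lay between, with Stroma8 at 6082 CPM (untreated) and 5773 CPM (progressed), and Stroma3 at 5182 and 5157 CPM. Progressed Stroma2 was at 5796 CPM and untreated Stroma1 at 3055 CPM. In the regressed tumor itself, Stroma8 (18 cells) was at 5245 CPM and Stroma3 (12 cells) at 4059 CPM. The 10 lowest genes summed to 1908 CPM in Stroma9, 1928 CPM in progressed Stroma6 and 1938 CPM in untreated Stroma2, against 7559 CPM in Stroma10, 7976 CPM in progressed Stroma4 and 7668 CPM in untreated Stroma4. Stroma9 had the highest level of the 17 groups for 4 of the 20 leading genes, was among the first 5 for 15, and came eighth at the lowest. Those 4 were Nrep, Hsd11b1, Ifi205 and Col4a1. The 18 Stroma8 cells of its own library were too few to be ranked. They were higher for Ifi205, at 628 CPM (458 to 840) against 239 CPM (214 to 267). For Hsd11b1 they were at 321 CPM (203 to 481) against 225 CPM (201 to 251). For Nrep and Col4a1 they were lower, at 41.8 and 404 CPM.

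**Figure D4:**
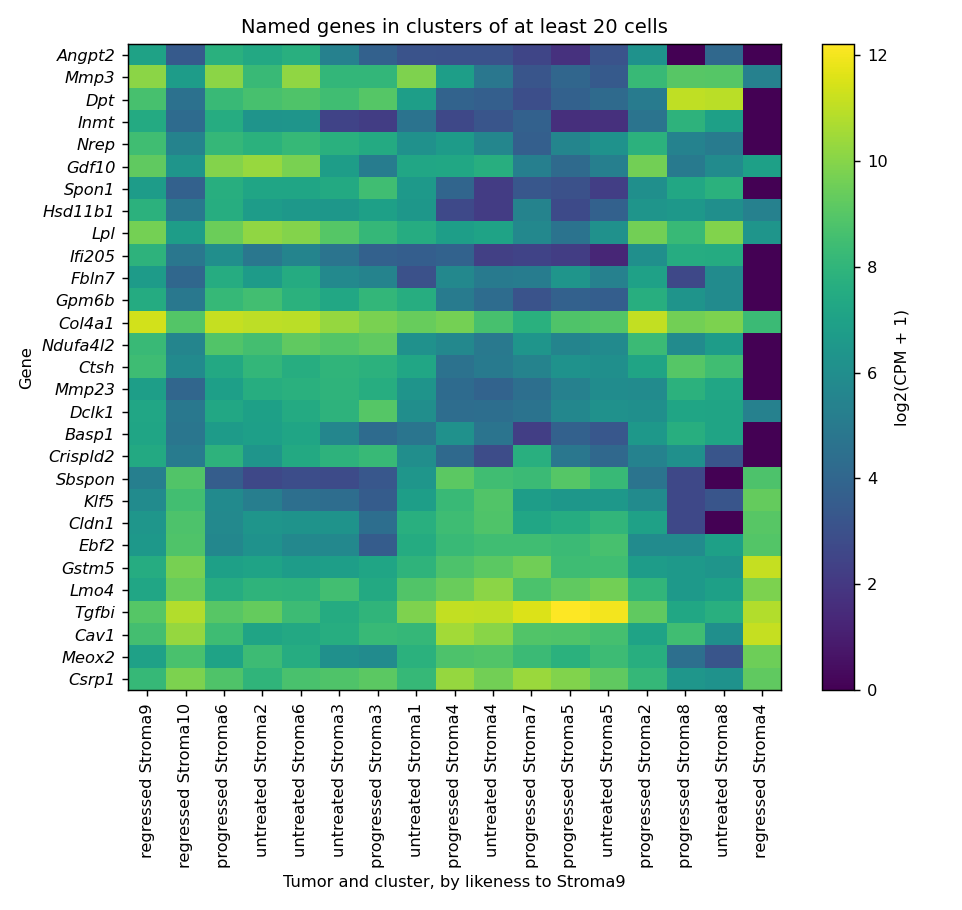
log2(CPM + 1) of 29 named genes (y axis) in the 17 tumor-and-cluster groups of at least 20 cells (x axis), ordered by likeness to Stroma9, which is first. Most of the upper 19 genes are high in Stroma9, progressed Stroma6 and untreated Stroma2 and Stroma6. Most of the lower 10 are high in Stroma10 and in the Stroma4, Stroma5 and Stroma7 groups. Exceptions include Ifi205 in untreated Stroma2 (28.1 CPM) and Klf5 in progressed Stroma5 (85.8 CPM).

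Single genes showed where these clusters parted. Mmp3 was at 1101 CPM in Stroma9, 1079 CPM in progressed Stroma6, 1141 CPM in untreated Stroma6 and 311 CPM in untreated Stroma2. Gdf10 was at 600 CPM in Stroma9 and was higher in progressed Stroma6 (988 CPM) and untreated Stroma2 (1293 CPM). Col4a1 was highest in Stroma9 at 2684 CPM, followed by progressed Stroma6 at 2211 CPM, the 26 progressed Stroma2 cells at 2163 CPM and untreated Stroma2 at 2002 CPM. Dpt was at 406.5 CPM in Stroma9, 311 CPM in progressed Stroma6 and 397 CPM in untreated Stroma2, and was higher in Stroma8, at 2108 CPM in the progressed tumor. Pi16, a gene of adventitial fibroblasts, was at 1667 CPM in progressed Stroma8 against 40.5 CPM in Stroma9.

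The regressed tumor had 13 cells named Stroma6, with 41486 UMIs, which allow a comparison inside 1 library. Their 20 leading genes summed to 7159 CPM (6368 to 8021), against 8439 CPM in Stroma9. For 17 of the 20 genes and 8 of the 10 lowest genes the interval of the log2 ratio of Stroma9 over these cells held 0, and with so few cells wide differences would do so. Gdf10 differed, at 600 CPM in Stroma9 and 48.2 CPM from 2 UMIs in Stroma6, a log2 ratio of 3.64 (1.78 to 6.69). Col4a1 was also higher in Stroma9, at 0.75 (0.40 to 1.13) on the log2 scale, and Ndufa4l2 lower at -1.81 (-2.25 to -1.33). Acta2 was at 18.8 CPM in Stroma9 and 458 CPM in the 13 Stroma6 cells.

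The contrast of Stroma9 with the rest of its stroma could then be set beside the contrast of its most alike cluster with Stroma4 in each other tumor. The clusters were picked for their likeness to Stroma9 and Stroma10, which favours a shared direction, and the values are a description. For progressed Stroma6 over Stroma4, 6.88% of 12423 features were at least 2-fold higher and 6.98% at least 2-fold lower. Of the 20 leading genes of Stroma9, 19 were at least 2-fold higher there, with a median log2 ratio of 2.93, and all 10 of the lowest genes were at least 2-fold lower. Basp1 was the exception at 0.58 (0.36 to 0.79). For untreated Stroma2 over Stroma4, 9.41% of 12442 features were higher and 6.98% lower, and 20 of the 20 and 9 of the 10 genes passed. Meox2 was the exception at -0.52.

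Over 1888 genes of at least 100 CPM in Stroma9 or the other regressed stroma, the log2 ratios of the regressed contrast had a Pearson correlation across genes of 0.86 with the progressed contrast and 0.85 with the untreated one. Genes are not independent replicates. Of 126 of these genes at least 2-fold higher in Stroma9, 101 were so in the progressed contrast, where 133 of the 1888 were, and 106 in the untreated contrast, where 185 were. Of 110 genes at least 2-fold lower, 83 and 86 were so, where 109 and 121 of the 1888 were. C3, Col8a1 and Abca6, named after their values were seen, were at least 2-fold lower in Stroma9 and not lower in either other contrast. C3 was at -1.79 in the regressed contrast, 2.77 in the progressed and 0.72 in the untreated one.

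**Figure D5:**
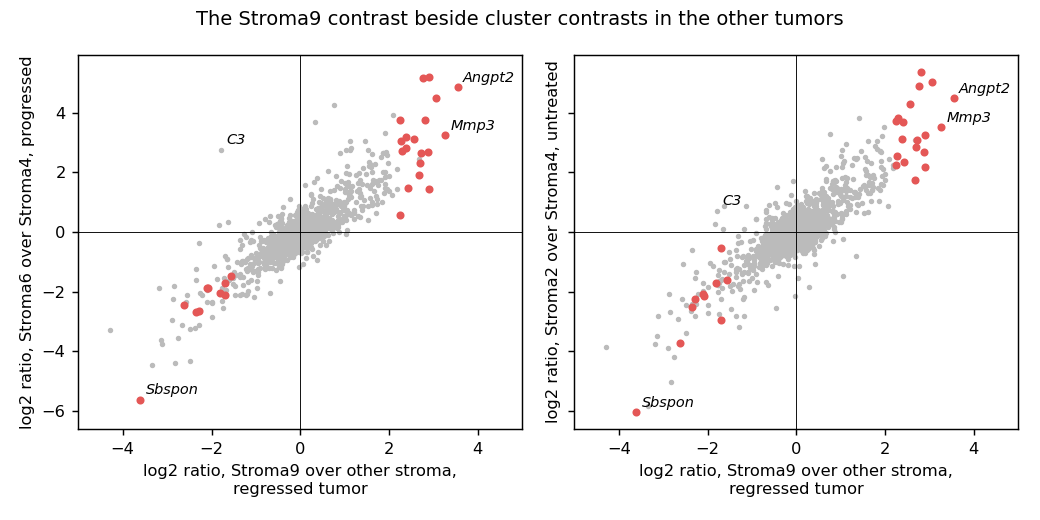
log2 ratios of 1888 genes (grey) and the named genes among them (red). The x axis is Stroma9 over other stroma in the regressed tumor, and the y axis is Stroma6 over Stroma4 in the progressed tumor (left) or Stroma2 over Stroma4 in the untreated tumor (right). Most genes lie along the diagonal, with Pearson values of 0.86 and 0.85, and C3 lies off it at -1.79 against 2.77 on the left.

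Fibrillar collagens and basement membrane genes summed to levels in Stroma9 close to those in its most alike clusters of the other tumors, and other matrix lists were more mixed. Against progressed Stroma6, 9.5% of 11966 features were at least 2-fold higher in Stroma9 and 6.7% lower, and against untreated Stroma2, 9.33% of 12255 were higher and 9.67% lower. TMM scaling, an edgeR factor that centres most genes, moved all log2 ratios by -0.23 and -0.16. With it, the counts higher and lower went from 1137 and 802 to 734 and 1196 against Stroma6, and from 1144 and 1185 to 818 and 1532 against Stroma2. The fibrillar collagens summed to 38151 CPM in Stroma9, 35920 CPM in progressed Stroma6 and 40546 CPM in untreated Stroma2. The basement membrane list was at 6460, 6145 and 6177 CPM. The log2 ratios of these 4 comparisons lay between -0.09 and 0.09, and the fibrillar collagen and basement membrane lists had no gene past 2-fold except 1 fibrillar collagen that was higher against untreated Stroma2. The crosslinking list was lower in Stroma9, at 580 CPM against 942 and 928 CPM. Of the 9 other collagens, 2 were at least 2-fold lower and 0 higher in both comparisons. Of 14 matrix glycoproteins, 4 were lower and 1 higher against Stroma6, and 3 lower and 0 higher against Stroma2. The matrix proteases and inhibitors summed to 7325 CPM in Stroma9, 6634 CPM in Stroma6 and 3965 CPM in Stroma2, with 3 of 11 genes at least 2-fold higher and 1 lower against Stroma2.

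Early response and inflammatory genes were lower in Stroma9 than in those clusters. Before TMM scaling, 6.7% of all compared features were at least 2-fold lower against progressed Stroma6 and 9.67% against untreated Stroma2. The shares at least 2-fold higher were 9.5% and 9.33%. The immediate early list was at 7431 CPM in Stroma9, 17292 CPM in progressed Stroma6 and 16222 CPM in untreated Stroma2, with 7 and 6 of 9 genes at least 2-fold lower. The inflammatory list was at 2339 CPM against 7103 and 6803 CPM, with 8 of 14 and 11 of 15 genes at least 2-fold lower. The MAPK target list was lower as a sum, at 641 CPM against 1706 and 1474 CPM, while its genes went both ways. Its median log2 ratio was 0.53 against Stroma6 and -0.27 against Stroma2, with 3 of 8 genes at least 2-fold higher and 1 lower against Stroma6, and 2 of 8 higher and 2 lower against Stroma2. Phlda1 made up most of the sum in Stroma6, at 1450 CPM against 298 CPM in Stroma9. Named genes on the low side were Cxcl1, a neutrophil chemokine, at 77.4 against 676 CPM in both, and Socs3, a feedback inhibitor of cytokine signalling, at 213 against 971 and 1342 CPM. Hk2, hexokinase 2, was at 72.3 CPM against 441 CPM in progressed Stroma6, and Igfbp4 at 923 CPM against 5614 CPM in untreated Stroma2.

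Stroma10 and Stroma4 are given for comparison. The inflammatory list was at 2042 CPM in Stroma10, 4200 CPM in progressed Stroma4 and 3225 CPM in untreated Stroma4, log2 ratios of -1.04 and -0.66, where those for Stroma9 were -1.60 and -1.54. The immediate early list was at 8090 CPM in Stroma10, 14657 CPM in progressed Stroma4 and 19970 CPM in untreated Stroma4. Cxcl1 was at 90.6 CPM in Stroma10 against 534 and 581 CPM, and Socs3 at 436 against 1790 and 2949 CPM. For other genes the values stood further apart in the Stroma9 comparison. Thbs1, thrombospondin 1, was at 132 CPM in Stroma9 and 758 CPM in progressed Stroma6, a log2 ratio of -2.52, and at -1.02 for Stroma10 over Stroma4. Mgp, matrix Gla protein, was at 1538 against 7695 CPM, or -2.32, and at -1.07 for Stroma10 over Stroma4. Igfbp4 was at -2.60 against untreated Stroma2, and at -1.15 for Stroma10 over Stroma4. The differences between these ratios were not tested.

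Genes on the high side included those of other cell types. Hbb-bs, a haemoglobin chain whose counts equal those of Hbb-b1, was at 1279 CPM in Stroma9, 0.176 CPM in progressed Stroma6 and 31.8 CPM in untreated Stroma2, and at 1596 CPM in regressed NK_T cells. The mast cell list was at 537 CPM in Stroma9 against 60.8 and 16.2 CPM, and at 695 CPM in the NK_T cells. Cd74, an MHC class II chaperone, was at 422 CPM against 125 and 59.9 CPM, with 436 CPM in Stroma10. Cebpb, a transcription factor of the acute-phase response, was at 417 CPM in Stroma9 against 66.8 and 67.2 CPM, and at 318 CPM in Stroma10. Gsn, gelsolin, which severs actin filaments, was at 26086 CPM in Stroma9, 5332 CPM in untreated Stroma2, 19776 CPM in Stroma10 and 8678 CPM in the 13 regressed Stroma6 cells.

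The tumors also differed in sex-linked transcripts. Xist, made from the inactive X chromosome of females, had 0 UMIs in Stroma9 and Stroma10 and was at 1714 CPM in progressed Stroma6 and 1720 CPM in untreated Stroma2. The Y-linked gene Ddx3y was at 99.1 CPM in Stroma9 and below 1 CPM in the other 2. Sex, treatment, library and cluster can therefore not be told apart in any difference between Stroma9 and clusters of the other tumors.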

How the data were processed

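Single-cell libraries (Chromium Single Cell 3' v2) were made from 1 untreated, 1 regressed and 1 progressed tumor. According to the methods and the submitters' processing notes, reads were aligned to GRCm38 with GSNAP, UMIs of uniquely mapped sense reads over exons were counted, cells under 300 UMIs were removed, and clusters were called with Seurat 2.2.0. The deposited tables hold whole-number counts of UMIs per gene and cell, not normalized. The deposited cluster table holds other values per cell: its cluster name, tumor, total UMIs and number of genes. Gene numbers matched the tables in all 12670 cells, and table sums were 5.02% above the deposited totals, 3.38% in Stroma9 and 3.47% in other regressed stroma. The tables were used as they stand. Cells were identified by ID, and 0 IDs were shared between tumors; barcodes were not used here, so shared barcodes were not counted.

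Of 36530 features, 31129 had a symbol by Entrez ID (RefSeq, GRCm38.p6), and the rest held 3.71% of UMIs. Counts were summed over the cells of a group and divided by the group's total to give CPM, with exact Poisson 95% intervals. Ratios carry exact conditional binomial intervals and shares Clopper-Pearson intervals. Intervals cover counting error only, since UMIs of 1 library are no biological replicates. Features needed 20 UMIs in both groups together, and a count of 0 was set to 3 UMIs over the group. Named genes were the 20 with the highest ratio among those of at least 100 CPM and a UMI in 20% of Stroma9 cells, the 10 with the lowest ratio among those of at least 300 CPM in other stroma, and, against clusters of other tumors, examples of the 8 highest and 8 lowest of at least 300 CPM, with members of the gene lists. The cells and lists were chosen with earlier results of these data known. The comparison with single clusters of other tumors was added after seeing the data, because Stroma9 itself had too few cells there. No doublet caller was run. The ratio code was tested on simulated counts. Alternatives were TMM scaling, equal weight per cell or per cluster, thinning to 1000 UMIs, dropping the deepest 5% of cells, dropping cells with 2 or more UMIs of other cell types' markers, other filters, and 1 feature of each of 34 sets with the same counts. Software was Python 3.11.15, numpy 2.4.6, scipy 1.17.1, pandas 2.3.3, matplotlib 3.10.9, R 4.3.3 and edgeR 4.0.16. Some genes and alleles are not reported here by name, and 1 of the 20 leading genes is left out of the plots; sums and counts include it.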

Additional observations from a re-analysis of the deposited data

How the results depend on the processing

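No paired analysis was possible because each group holds 1 tumor. The 30 named genes kept their sign and stayed past 2-fold in all 240 values under 8 alternatives, of which 51 lay outside the interval of the reported value. For 49 lists, 144 of 392 values lay outside that interval and 0 reversed the sign of a list past 2-fold. As a share of all cells, Stroma9 was 8.32% of the regressed tumor. The count of features at least 2-fold higher in Stroma9 was 2761 (1802 lower) with clusters weighted equally, where Stroma4 adds only 20 cells and 24748 UMIs. With no filter on low counts, 5352 scored as higher and 1667 as lower. The 5352 can include features with no UMI in Stroma9, because empty counts were raised to a set minimum. With at least 100 UMIs, a filter chosen after seeing the data, 245 were higher and 441 lower. The log2 ratio of the fibrillar collagens was 1.76 with TMM scaling, 1.63 with equal weight per cell, 1.65 after thinning, 1.71 without the deepest cells, 1.66 without cells with other markers, 2.01 with clusters weighted equally and 1.75 against Stroma10 alone (also chosen after seeing the data). That of the basement membrane list was 1.57 with TMM scaling. TMM scaling, added there after seeing the data, took the count higher than in progressed Stroma6 to 734. The comparison of Stroma9 between tumors and its alternatives, and the repeat in another tumor with at least 20 Stroma9 cells, were not run, since no other tumor had 20. Leaving out a replicate was not possible with 1 per group. Depth limits the low values: a level of a few CPM in Stroma9 rests on fewer than 10 UMIs.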
